A study of Mus musculus with 24 samples.

Results

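The 8 genes described here are markers of endothelial cells, the cells that line blood vessels. They are TEK, KDR, ENG, ERG, ESAM, SOX18, CLDN5 and RAMP2, taken by symbol from a table of FPKM values (fragments per kilobase of transcript, scaled to the assigned reads of the library) of 7493 genes. All 8 were rows of the table, and 5 of them (TEK, ERG, RAMP2, ENG and CLDN5) reached 1 FPKM in at least 3 libraries, the condition for entering the tests, as did 4260 genes in all. KDR, ESAM and SOX18 did not reach it. Bulk RNA sequencing covered lung, aorta, kidney, heart, stomach, liver, brain and spleen of SENCR-BAC transgenic mice, which carry a bacterial artificial chromosome (BAC) with the human long non-coding RNA gene SENCR. Each tissue had 3 libraries, 24 in all, and every group shared the transgene, since the labels name no animal without it. The sample titles read SENCR-BAC, while all library names carry the code SR-KI, which is not interpreted here. The labels give no age, strain background or number of transgenic lines, and do not say which libraries came from the same animal. Alignment was to a human genome, so a mouse transcript was counted only where its sequence matched the human one closely enough, and the levels of different genes are not comparable. Tissues are compared within a gene.

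Endothelial cells depend on receptors that sense growth factors from neighbouring cells. TEK (also called TIE2) is the receptor tyrosine kinase for angiopoietins and keeps vessels quiescent, KDR (VEGFR2) is the main signalling receptor for VEGF-A, and ENG (endoglin) is a co-receptor for BMP and TGF-beta ligands. RAMP2 pairs with the receptor CALCRL to form a receptor for adrenomedullin, a peptide that supports vessel integrity. ERG, an ETS-family factor, and SOX18 are transcription factors of endothelial identity, and CLDN5 and ESAM are adhesion proteins of the junctions that seal the endothelium. Lung is crossed by a dense capillary bed, the aorta carries a single endothelial layer on a thick muscular wall, and brain capillaries are known for their CLDN5-rich tight junctions.

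ERG and its relatives bind the short core GGAA, which reads TTCC on the other strand. Upstream sequences of the members are shown to give this core its place in the genes that were counted. RefSeq promoters (build GRCm38.p6) were matched by symbol for 5 of the 8 members, and the 250 bases before the start site are printed 5′ to 3′ for the members with a single listed start that entered the tests, with each GGAA or TTCC in capitals. They lie at chr4:94739039-94739288 (plus strand) for Tek, chr2:32646345-32646594 (plus strand) for Eng and chr16:18776597-18776846 (plus strand) for Cldn5.
Tek: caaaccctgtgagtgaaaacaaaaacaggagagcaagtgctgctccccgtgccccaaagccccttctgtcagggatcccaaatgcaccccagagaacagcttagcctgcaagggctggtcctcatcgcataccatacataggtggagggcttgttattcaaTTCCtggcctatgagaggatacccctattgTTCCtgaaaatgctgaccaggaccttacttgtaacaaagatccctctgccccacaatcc
Eng: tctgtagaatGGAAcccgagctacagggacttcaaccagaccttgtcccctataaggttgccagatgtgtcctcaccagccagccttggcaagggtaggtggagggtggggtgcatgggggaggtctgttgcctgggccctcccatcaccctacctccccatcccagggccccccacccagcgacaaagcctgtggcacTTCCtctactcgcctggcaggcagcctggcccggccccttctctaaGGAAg
Cldn5: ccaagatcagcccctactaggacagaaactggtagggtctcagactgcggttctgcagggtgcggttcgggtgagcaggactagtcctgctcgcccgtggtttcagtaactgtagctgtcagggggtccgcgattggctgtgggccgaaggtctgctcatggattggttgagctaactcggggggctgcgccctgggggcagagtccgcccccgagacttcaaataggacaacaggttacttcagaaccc
The Tek window held 2 matches, the Eng window 3 and the Cldn5 window 0, counted on both strands. Of 32851 promoters of this length, 93.4% held at least 1 match, 76.8% at least 2 and 54.7% at least 3, so the core was common in promoters at large. The match is a description of letters and not a binding site. Erg has 3 listed starts, with 2, 4 and 0 matches, and Kdr has 1 start with 4.

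Read support was low throughout. Whole reads were recovered from the FPKM values, and the 8 genes held 349 of the 9614078 assigned reads of the 24 libraries, or 36.3 RPM (reads scaled to library size). Assigned reads per library ran from 193902 in liver replicate 3 to 642890 in brain replicate 2, with means (SD, n = 3) of 605954 ± 32613 in brain and 205978 ± 10880 in liver. Of the 349 reads, 247 came from lung, 52 from aorta, 24 from kidney, 19 from heart, 3 from stomach, 2 each from brain and liver, and 0 from spleen. Their summed RPM was 134.35, 175.19 and 203.46 in lung replicates 1, 2 and 3, 28.9, 53.5 and 41.0 in aorta, 18.1, 31.2 and 23.0 in kidney, and 19.7, 8.32 and 25.7 in heart. The remaining libraries held between 0 and 6.02 RPM. Aorta replicates 1 and 3 stood apart from the rest in a different respect, with 363 and 216 reads of the 13 mitochondrially encoded genes against 6 in aorta replicate 2 and at most 19 in any library of another tissue. The lung differences from aorta of the tested members are therefore also given without them. Defining markers had their highest means in the labelled tissue for heart (ACTC1), kidney (KCNJ1), liver (HAO1), brain (SNAP25), lung (NKX2-1) and spleen (PAX5 and SPI1), while the gastric marker SOX2 was higher in brain (10.8 ± 2.30 FPKM) than in stomach (5.05 ± 3.31). In bulk tissue, fewer cells of a type and less RNA per cell cannot be told apart.

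**Figure D1:**
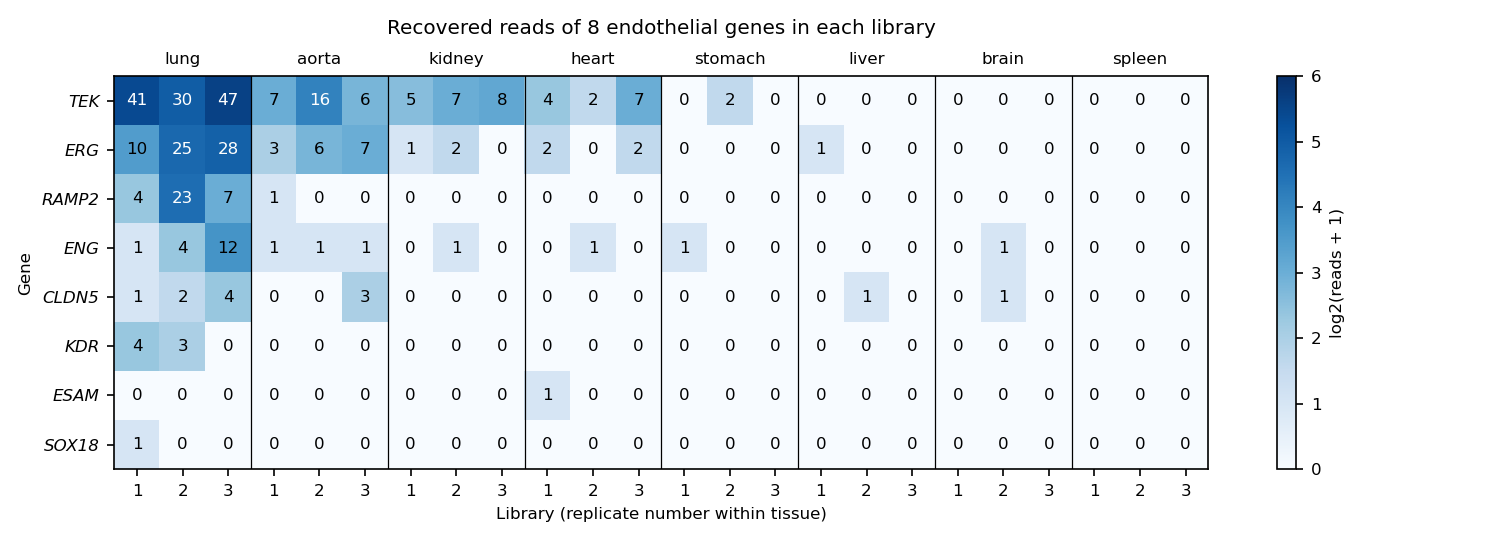
Recovered reads of the 8 genes (rows) in each of the 24 libraries (columns, grouped by tissue, numbered by replicate). Each cell prints the read count and is coloured by log2(reads + 1). TEK and ERG form the darkest rows and the 3 lung libraries the darkest columns, while ESAM and SOX18 each show 1 read in the whole study.

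Lung had the highest mean of TEK, ERG, RAMP2, ENG, CLDN5 and KDR. TEK, the angiopoietin receptor, was the best supported member, with 182 reads in 13 libraries. Its levels in lung replicates 1 to 3 were 18.6, 12.7 and 20.5 FPKM, from 41, 30 and 47 reads. In aorta they were 3.54, 7.79 and 3.03 FPKM (7, 16 and 6 reads), in kidney 3.16, 4.57 and 4.83 FPKM (5, 7 and 8 reads), and in heart 2.35, 1.16 and 4.18 FPKM (4, 2 and 7 reads). Stomach had 2 TEK reads, both in replicate 2 (1.26 FPKM). No TEK read was found in liver, brain or spleen, where 3 reads over the tissue would correspond to 1.02, 0.346 and 0.415 FPKM. The 3 lung libraries were all above the 21 others, the closest being lung replicate 2 at 12.7 FPKM and aorta replicate 2 at 7.79 FPKM. Tissue means (SD, n = 3) were 17.2 ± 4.07 FPKM in lung, 4.79 ± 2.62 in aorta, 4.19 ± 0.899 in kidney, 2.57 ± 1.52 in heart and 0.420 ± 0.728 in stomach.

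On the log2(FPKM + 1) scale, which understates changes of low genes, TEK differed between tissues (limma F test over 8 tissues, adjusted p = 4.65e-09). A gene was called in a contrast where its Benjamini-Hochberg adjusted p was below 0.05 over all 4260 genes and its difference was at least 1. Lung TEK was 3.17 above the mean of the other 7 tissues (SE 0.27, limma adjusted p = 3.79e-08), in a contrast that called 11.9% of all genes higher. Aorta was 1.21 above (adjusted p = 0.00176, where 9.58% of genes were called higher) and kidney 1.11 above (adjusted p = 0.00354, where 9.77% were). The aortic value rested on aorta replicate 2, without which the difference was 0.86 and no longer called (limma adjusted p = 0.0410). Heart was 0.41 above the mean of the others and not called (limma adjusted p = 0.238). In pairs, heart was called 1.74 above each of brain, liver and spleen, and 2.42 below lung. Brain, liver and spleen were each 1.59 below the mean of the others (limma adjusted p = 5.27e-05, 8.59e-05 and 0.000103), where 10.5%, 17.3% and 13.5% of genes were called lower. Stomach was 1.14 below (adjusted p = 0.00372, where 5.87% of genes were called lower). Lung is part of the mean that the other tissues were set against, and without the 3 lung libraries the stomach difference was -0.70 (limma adjusted p = 0.0645).

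Ordered by TEK level, lung was followed by aorta, kidney, heart and stomach. Lung exceeded aorta by 1.72 (limma adjusted p = 0.00189), and pooled RPM gave a ratio of 3.56 (exact 95% interval 2.36 to 5.55, counting error only). Without aorta replicates 1 and 3, the lung difference from the remaining aortic library, which had the most TEK reads, was 1.03 and not called (limma adjusted p = 0.241); that library was assumed to vary like the libraries of the other tissues. Aorta and kidney did not differ beyond their spread (0.08, adjusted p = 0.946), nor did kidney and heart (0.61, adjusted p = 0.221). Heart exceeded stomach by 1.35 (limma adjusted p = 0.00669, in a pair where 7.16% of genes were called higher in heart). The pooled ratios of lung to kidney and to heart were 4.10 (2.54 to 6.95) and 6.73 (3.79 to 13.01). Against the tissues with no TEK read, lung was at least 49.7-fold higher than brain, 41.4-fold higher than spleen and 16.9-fold higher than liver, taking 3 reads over the tissue as the floor.

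RAMP2, the adrenomedullin receptor subunit, had 34 of its 35 reads in lung. Lung replicates 1 to 3 had 11.5, 61.6 and 19.3 FPKM from 4, 23 and 7 reads. The only other read was in aorta replicate 1 (3.20 FPKM), and 20 libraries were at 0. All lung libraries were above all others, although they spread widely among themselves (30.8 ± 26.9 FPKM, SD, n = 3). Lung was 4.55 above the mean of the other tissues (SE 0.35, limma adjusted p = 7.40e-09) and 3.96 above aorta (limma adjusted p = 2.74e-06). RAMP2 reached 1 FPKM in 1 library outside lung, so it would not have entered these tests without its lung libraries. The pooled ratio of lung to aorta was 29.8, with an exact 95% interval of 4.99 to 1209 that shows how little the single aortic read fixes. In the mouse annotation (GENCODE vM21), Ramp2 overlaps Vps25 on the same strand. VPS25 had 2, 15 and 17 reads in lung replicates 1 to 3 and between 0 and 7 in the other libraries. Reads were counted on the human build, where overlaps of genes were not examined. RAMP2 reads are therefore uncertain if the 2 genes could share them there. RAMP2's partner gene CALCRL was not among the genes of the table, so it had no level here.

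ENG, the BMP and TGF-beta co-receptor, had 24 reads in all. Lung replicates 1 to 3 had 1, 4 and 12 reads, or 0.638, 2.37 and 7.34 FPKM. The exact 95% intervals of lung replicate 1 (0.0162 to 3.56 FPKM) and replicate 3 (3.79 to 12.8 FPKM) did not overlap, so the lung libraries differed by more than counting error. Each aortic library had 1 read (0.702 ± 0.0149 FPKM, SD, n = 3), and kidney, heart, stomach and brain had 1 read each. Liver and spleen had none. The lung and other libraries overlapped, since lung replicate 1 lay below stomach replicate 1 (1.01 FPKM). ENG was 1.57 above the mean of the others in lung (SE 0.32, limma adjusted p = 0.000714), a test it would not have entered without its lung libraries. It was called above 6 of the 7 other tissues, but not above aorta (1.08, adjusted p = 0.0915). Without aorta replicates 1 and 3, the lung difference from the lone aortic library was 1.09. ENG lay just inside the condition for testing, with 1 FPKM reached in 3 libraries, against 2 libraries for KDR just outside it. Without lung replicate 2, lung replicate 3 or stomach replicate 1 it was not tested. Eng overlaps Fpgs on the opposite strand in the mouse annotation, and whether reads were counted by strand is not stated in the labels or notes. Overlap in the human build, on which reads were counted, was not examined. FPGS had 0 reads in lung and 4 in all.

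KDR, the VEGF receptor, had 7 reads, all in lung, with 4 in replicate 1 (1.49 FPKM), 3 in replicate 2 (1.04 FPKM) and 0 in replicate 3. The third lung library had the most ENG reads and no KDR read. The exact 95% Poisson interval of that library (0 to 1.31 FPKM) overlaps those of both other lung libraries. No test was made for KDR.

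Among the transcription factors, ERG had 87 reads. Lung replicates 1 to 3 were at 3.45, 8.01 and 9.25 FPKM from 10, 25 and 28 reads. Aorta was at 1.15, 2.22 and 2.69 FPKM from 3, 6 and 7 reads. Heart had 2, 0 and 2 reads, kidney 1, 2 and 0, and liver 1 in replicate 1. Brain, spleen and stomach had none. The lowest lung library (3.45 FPKM) was above the highest other library (aorta replicate 3, 2.69 FPKM). ERG was 2.47 above the mean of the others in lung (SE 0.25, limma adjusted p = 3.62e-07) and 1.34 above aorta (limma adjusted p = 0.00768). Without aorta replicates 1 and 3, again with a lone aortic library, the ERG difference was 1.21 and not called (limma adjusted p = 0.134), and that of RAMP2 was 4.65 (limma adjusted p = 7.86e-06). In aorta ERG was 0.94 above the mean of the others (limma adjusted p = 0.00645), short of the minimum difference. That difference was 1.32 without the 3 lung libraries and passed (limma adjusted p = 0.00013), and 1.17 without aorta replicate 1 (limma adjusted p = 0.00547). Aorta and heart, its next 2 tissues by level, differed by 0.94 (limma adjusted p = 0.0396, not called), and heart and kidney by 0.10 (adjusted p = 0.934). In pooled reads, lung ERG was 3.45 times that of aorta (exact 95% interval 1.97 to 6.39), 11.7 times that of heart (4.34 to 44.2) and 14.6 times that of kidney (4.77 to 72.6). SOX18, the other transcription factor, had 1 read in the study, in lung replicate 1 (1.16 FPKM).

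The junction genes were the least covered. CLDN5 had 12 reads. Lung replicates 1 to 3 had 1, 2 and 4 reads (0.936, 1.74 and 3.59 FPKM), aorta replicate 3 had 3 (3.13 FPKM), and liver replicate 2 and brain replicate 2 had 1 each (2.01 and 0.672 FPKM). The groups overlapped. Lung was 1.33 above the mean of the others (SE 0.34, limma adjusted p = 0.00531). CLDN5 also would not have entered that test without its lung libraries, with 1 FPKM reached in 2 libraries outside lung. It was called above 5 tissues, and not above aorta (0.85, adjusted p = 0.237) or liver (1.01, adjusted p = 0.0899). Without aorta replicates 1 and 3, the lung difference from the lone aortic library, which had no CLDN5 read, was 1.535. Without lung replicate 3 the lung difference from the mean of the others was 1.00 and was not called (limma adjusted p = 0.0796). Brain, where CLDN5 is known from capillaries, had 1 read of 1817861 assigned. ESAM had 1 read in all, in heart replicate 1 (1.54 FPKM), and none in lung.

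**Figure D2:**
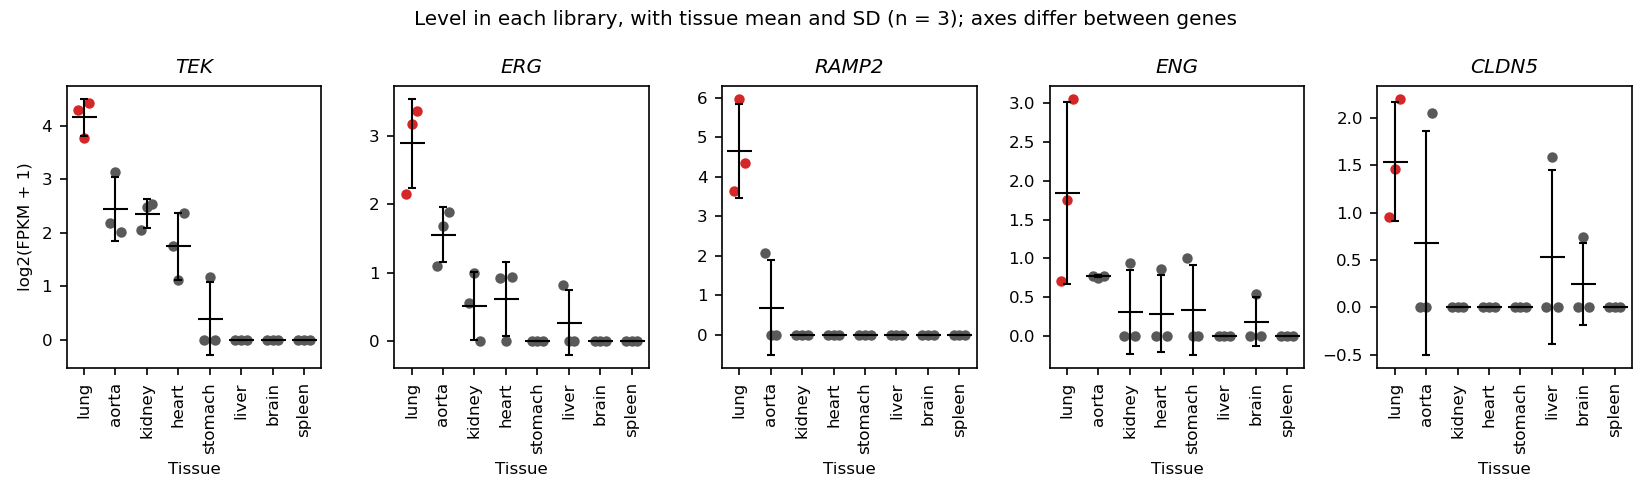
Level of the 5 tested genes by tissue, as log2(FPKM + 1) on the vertical axis. Points are single libraries, and bars are the mean and SD of 3. Lung points lie above all other libraries for TEK, ERG and RAMP2, and overlap with other tissues for ENG and CLDN5.

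Each of the 5 tested members passed the F test over tissues (limma adjusted p = 8.65e-08 for RAMP2, 8.19e-07 for ERG, 0.00871 for ENG and 0.0423 for CLDN5), a test that 77.6% of the 4260 genes passed. All 5 were called higher in lung. RAMP2, ENG and CLDN5 reached 1 FPKM in 1, 1 and 2 libraries outside lung. These 3 of the 5 would not have entered the tests without lung, the tissue where they are high. A difference there was therefore favoured in advance. TEK and ERG reached 1 FPKM in 10 and 3 libraries outside lung. The counts describe the members and are no support for a pattern. In the comparison of lung with aorta, 3 of the 5 (TEK, ERG and RAMP2) were higher in lung, where 8.50% of genes were called lower in aorta. These 3 were called above every other tissue in turn, in pairs where the share of genes called higher in lung was 13.8% against kidney, 23.8% against heart, 16.6% against brain, 22.0% against liver, 14.3% against spleen and 11.3% against stomach. No tested member was called higher in brain, heart, liver, spleen or stomach, where 23.9%, 6.41%, 9.81%, 11.5% and 7.65% of all genes were. TEK was the only one called lower in any tissue. At 0 reads in a tissue, ERG, RAMP2, ENG and CLDN5 lay 0.84, 0.76, 0.53 and 0.43 below the mean of the others. These genes could therefore not reach the minimum difference and be called lower anywhere. TEK was not called lower in lung, aorta, kidney or heart, where 3.64%, 8.19%, 8.12% and 17.4% of all genes were.

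**Figure D3:**
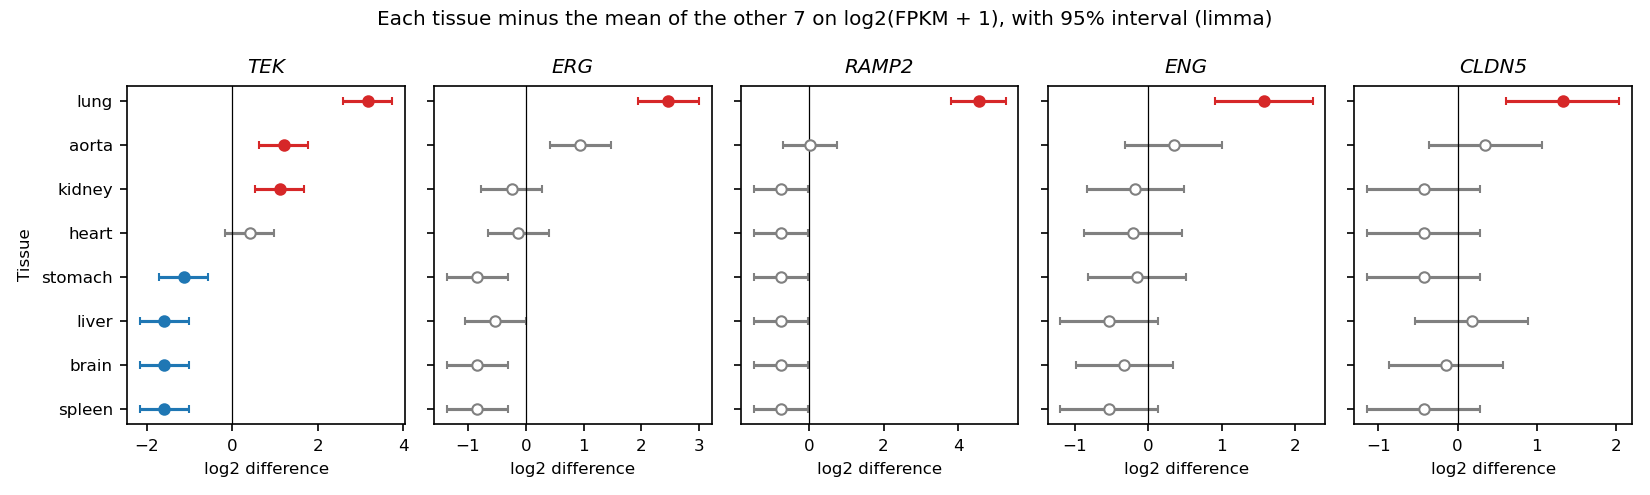
Difference of each tissue from the mean of the other 7 on the log2(FPKM + 1) scale, for the 5 tested genes, with 95% intervals from limma. Filled points were called (red higher, blue lower) and open points were not. Lung is called for all 5 genes, and aorta and kidney for TEK.

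As a share of its reads, lung accounted for 64.8% of TEK (118 of 182, exact Clopper-Pearson 95% interval 57.4 to 71.8), 72.4% of ERG (63 of 87, 61.8 to 81.5), 97.1% of RAMP2 (34 of 35, 85.1 to 99.9) and 70.8% of ENG (17 of 24, 48.9 to 87.4). For CLDN5 it was 58.3% (7 of 12, 27.7 to 84.8), and for KDR 100% (7 of 7, 59.0 to 100). Lung libraries held 15.0% of all assigned reads. All of these intervals lay above that share, and the single reads of SOX18 and ESAM fixed no share. How many of all genes have such an interval was not counted. RAMP2, ENG and CLDN5 would not have been tested without lung, so the intervals describe the members and are no support for a pattern. The libraries carried no molecular identifiers that would separate molecules from copies, so such intervals cover counting error only.

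**Figure D4:**
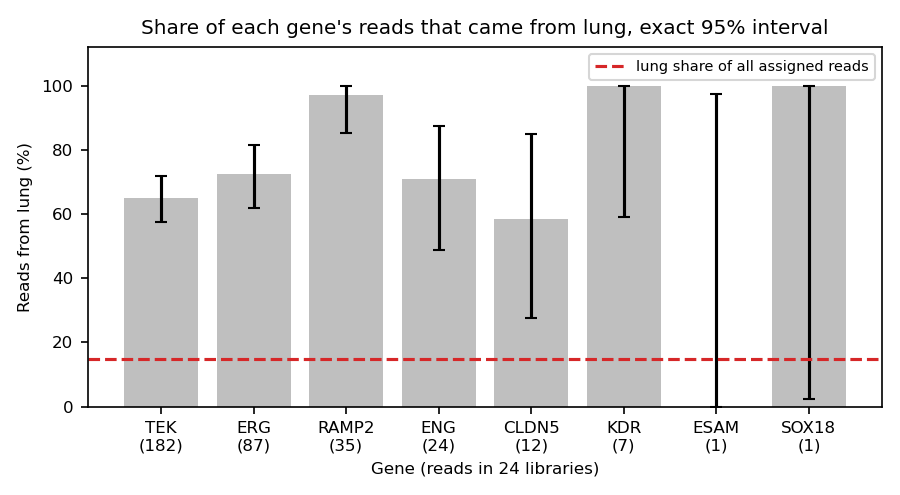
Percentage of each gene's reads that came from the 3 lung libraries, with exact 95% intervals for counting error; the number under each name is its reads in 24 libraries. The dashed line is the lung share of all assigned reads (15.0%). The intervals of TEK, ERG, RAMP2, ENG, CLDN5 and KDR lie above it, and how many of all genes do so was not counted.

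Across the 24 libraries the tested members followed one another to different degrees. On the log2(FPKM + 1) scale Pearson's r was 0.853 between TEK and ERG, 0.825 between ERG and RAMP2, 0.697 between TEK and RAMP2, and between 0.44 and 0.787 for the pairs with ENG or CLDN5. These libraries are 8 tissues of 3, and many share 0 reads, so r is a description of them. The genes of the whole tested table most like TEK were GATA2 (r = 0.871, 370 reads), ACE (0.869, 110 reads) and ERG. GATA2 encodes a transcription factor of endothelial and blood cells, and ACE the angiotensin-converting enzyme, known from the endothelium of lung. ACE was at 10.9 ± 4.54 FPKM in lung and 2.01 ± 0.985 in aorta (SD, n = 3). Most like ERG were NPNT (0.909, 69 reads), ACE (0.899) and PHACTR2 (0.885, 99 reads). NPNT encodes nephronectin, a matrix ligand of integrins, and was at 6.74 ± 3.37 FPKM in lung, 3.39 ± 2.44 in aorta and listed at 0 in brain, heart, liver and spleen. Most like RAMP2 were TPPP3 (0.972, 22 reads), LINC02178 (0.963, 10 reads) and RSPO1 (0.949, 18 reads).

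The other genes of these pathways were taken from 6 lists, of which only a part was in the table. It held 12 of 20 vascular receptor signalling genes, 17 of 25 of the endoglin and BMP list and 2 of 12 adrenomedullin genes. Of the endothelial lists it held 24 of 29 transcription factors, 11 of 24 junction genes and 12 of 41 other genes. Counts below cover the tested genes among these. In lung the median difference of all 4260 genes was 0.15, and 11.9% of them were called higher and 3.64% lower, the shares beside which each count in lung is to be read. Of 9 tested genes of vascular receptor signalling 4 were higher in lung and 0 lower (median 0.67). VEGFA, the ligand of KDR, stood at 832.7 ± 196 FPKM in lung against 190.1 ± 29.5 in aorta, 197.4 ± 20.4 in heart, 185.9 ± 26.8 in kidney, 166.8 ± 46.5 in liver and 30.5 ± 13.6 in spleen (SD, n = 3). It was 3.13 above the mean of the other tissues in lung (limma adjusted p = 3.72e-09), from 4577 reads. ANGPT1, the activating ligand of TEK, was at 15.6 ± 6.05 FPKM in lung (3.06, limma adjusted p = 2.31e-07) and 7.28 ± 0.885 in heart (1.99, limma adjusted p = 2.35e-05). NRP1, a VEGF co-receptor, was 2.10 higher in lung (limma adjusted p = 0.000778), and PLCG1, a phospholipase downstream of KDR, 1.28 higher (limma adjusted p = 0.0255). FLT4, a lymphatic VEGF receptor, had 1 read in the whole study, in stomach replicate 1, and was not tested.

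Of 12 tested genes of the endoglin and BMP receptor list 5 were higher in lung and 0 lower (median 1.00). BMPR2, the type II BMP receptor, was at 43.5 ± 3.86 FPKM in lung (2.96, limma adjusted p = 5.90e-08). SMAD6, an inhibitory SMAD that restrains BMP signalling, was at 205.9 ± 16.1 FPKM in lung and 88.9 ± 12.5 in aorta, 4.26 and 2.88 above the means of the other tissues (limma adjusted p = 7.02e-10 and 6.81e-08), and at 1.27 ± 0.756 FPKM in spleen. The related SMAD7 reached 244.3 ± 44.5 FPKM in lung (1.72, limma adjusted p = 7.08e-06). The ligand BMP4 had its highest mean in aorta, at 515.8 ± 226 FPKM against 293.1 ± 37.8 in lung. ID1, a BMP target, was the other gene called. Of the adrenomedullin list, GNAS (the G protein subunit that couples the receptor to cAMP, 1099 ± 34.0 FPKM in lung) and ACKR3 (a scavenger receptor, 4 reads in lung) were tested, and 0 were called in any tissue.

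Of 17 tested endothelial transcription factors besides the members, 9 were higher in lung and 1 lower (median 1.14). GATA2 was at 41.7 ± 4.32 FPKM in lung, 12.8 ± 4.46 in aorta and 8.95 ± 2.79 in heart (lung difference 3.58, limma adjusted p = 4.10e-07). FLI1, an ETS factor like ERG, was at 565.1 ± 263 FPKM in lung and 696.0 ± 346 in spleen. Spleen had 5455 FLI1 reads and 0 ERG reads. SENCR is transcribed antisense to FLI1 in the human genome, and human BAC and mouse FLI1 reads could not be told apart. ETS1, ELK3, LMO2, KLF4, MEF2A, FOXP1 and EPAS1 were also higher in lung. PROX1, the factor of lymphatic endothelium that is also expressed in hepatocytes and cardiomyocytes, was lower. In spleen, where all 8 members were at 0 reads, 6 of the 17 were higher and 3 lower, against 11.5% and 13.5% of all genes, so the count of lower ones was near the background. Several of these factors are shared with leukocytes.

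Of 9 tested junction genes 6 were higher in lung and 0 lower (median 1.17). TJP1 (ZO-1), a tight junction scaffold, was at 77.0 ± 4.06 FPKM in lung (2.18, limma adjusted p = 5.92e-06). CTNNB1 (beta-catenin), an adherens junction protein found in most cells, was at 736.9 ± 71.1 FPKM, 1.04 above the mean of the others. RAP1B, a small GTPase of junction control, was at 199.3 ± 14.8 FPKM in lung and 199.5 ± 52.5 in spleen. CTNNA1, GJA4 and GJC1 were also higher. Under median-ratio scaling, which moved the median of all genes in lung from 0.15 to -0.02, 3 of the 9 (GJC1, RAP1B and TJP1) were called. Of 7 tested other endothelial genes, from a list of 41, 5 were higher in lung and 0 lower (median 2.28). EFNB2, the ephrin of arterial endothelium, was at 132.0 ± 20.7 FPKM in lung and 60.8 ± 5.76 in aorta (lung difference 3.50, limma adjusted p = 1.18e-10). CAV1 and CAVIN1, which form caveolae, were at 47.3 ± 16.7 and 33.4 ± 2.47 FPKM in lung (3.73 and 2.56, limma adjusted p = 1.33e-06 and 1.13e-05) and at 20.4 ± 7.34 and 50.2 ± 8.97 in aorta (2.38 and 3.19, limma adjusted p = 0.000170 and 4.87e-07). JAG1, a Notch ligand, was at 15.9 ± 0.441 FPKM in lung and 22.6 ± 4.15 in aorta, 1.67 and 2.20 above the means of the others (limma adjusted p = 0.00115 and 6.20e-05). EDNRB, an endothelin receptor, was at 10.5 ± 4.29 FPKM in lung, 2.28 above. The calls in lung over all genes were 76.6% higher, against 65.0% under median-ratio scaling and 62.8% under quantile normalization.

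In aorta the same lists gave 1 gene higher of 9 for vascular receptor signalling, 4 of 12 for the endoglin and BMP list, 6 of 17 transcription factors with 1 lower, 1 of 9 junction genes with 1 lower, and 4 of 7 other endothelial genes. The aortic shares over the whole tested table were 9.58% higher and 8.19% lower, so the counts of vascular receptor and junction genes were near the background. In liver 10 of the 17 transcription factors were lower and 1 was higher, and in brain 7 were lower and 2 higher. Over all genes 17.3% were lower and 9.81% higher in liver, and 10.5% lower and 23.9% higher in brain, so the counts of higher factors were no larger than the background. Many of the listed genes are also expressed by cells other than endothelium.

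**Figure D5:**
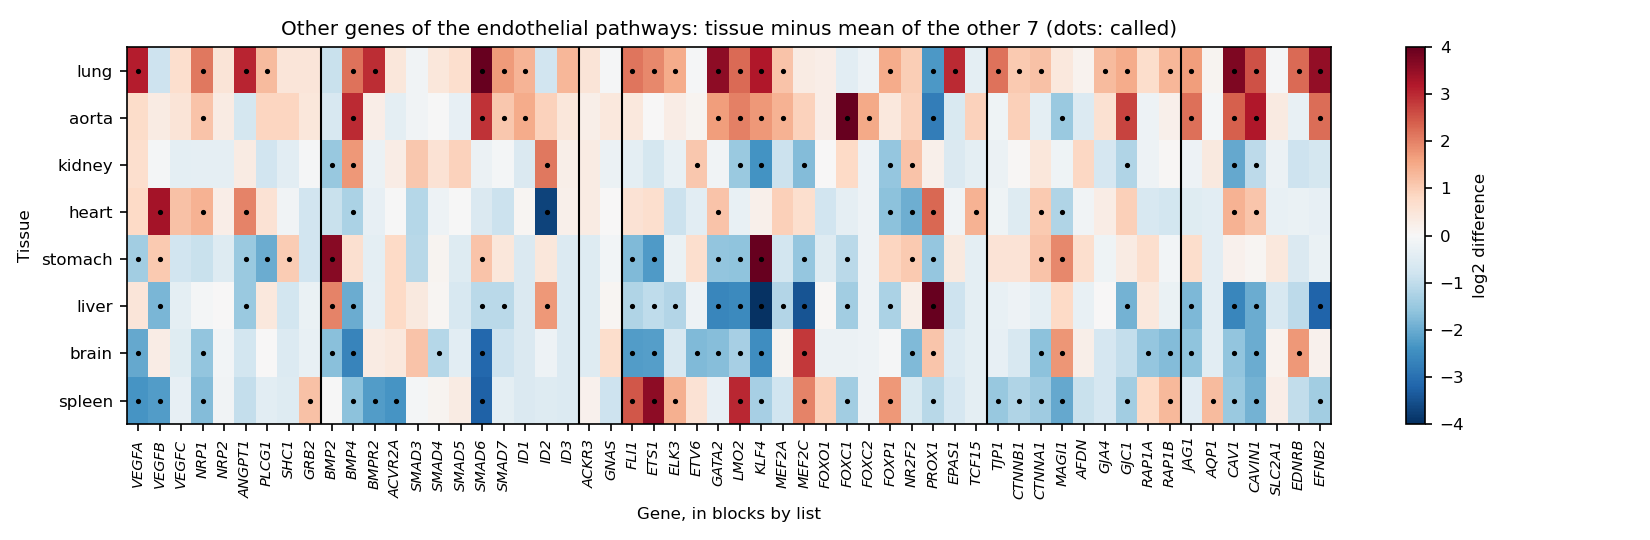
Difference of each tissue (rows) from the mean of the other 7 on the log2(FPKM + 1) scale for the tested genes of the 6 pathway lists (columns, in blocks by list). Colours run from -4 (blue) to 4 (red), and dots mark called differences. The lung row carries most of its dots on red cells, with PROX1 as its called blue cell.

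Markers of some other cell types were also higher in lung, where 11.9% of all genes were called higher and 3.64% lower. Others were not. Of 7 tested hepatocyte markers 0 were higher and 4 lower, and of 7 neuron and glia markers 1 was higher and 3 lower. Of 4 kidney tubule markers 0 were called in lung. NKX2-1, the transcription factor of lung epithelium, was at 216.1 ± 9.33 FPKM in lung. Of the 7 alveolar and airway markers of its list 2 were in the table, and they summed to 208 to 228 FPKM in lung and at most 1.26 elsewhere. Of the 17 leukocyte markers 8 were in the table, 3 were tested and 2 were higher in lung (SPI1 at 106.1 ± 21.7 FPKM and PAX5 at 12.1 ± 6.59), with summed levels of 110 to 140 FPKM in lung, 161 to 338 in spleen and 1.85 to 50.1 elsewhere. Of 8 tested smooth muscle markers 4 were higher in lung, with a summed level of 597 to 995 FPKM against 1225 to 1507 in aorta. Of 9 tested cardiomyocyte markers 4 were higher in lung, among them ACTC1 (1038 ± 143 FPKM), with a summed level of 971 to 1287 FPKM against 50287 to 60423 in heart. Of 5 tested fibroblast and matrix markers 2 were higher. The 3 pericyte markers in the table summed to at most 0.232 FPKM in lung, and the platelet marker GFI1B to at most 0.617. Platelets and blood stem cells can express TEK, ERG or ENG, and the part of these other cells in the lung values was not tested.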

How the data were processed

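Total RNA was extracted with TRIzol and sequenced after VAHTS Universal V10 library preparation, per the labels' protocols. The submitters' processing notes name fastp, HISAT2 and HTSeq and the human build GRCh38.p13, with no versions; strandedness of the counting is not stated. The authors deposited FPKM of 7493 genes in 24 libraries, and 91.4% of the symbols match a mouse symbol when case is ignored. Only sequence conserved between mouse and human is counted, which lowers depth and makes levels of different genes incomparable.

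Whole reads were recovered from the FPKM by solving for library totals that make every gene's length and read count whole (7492 of 7493 genes, with implied lengths whole within 0.003 bases for at least 97.97% of genes in each library). They state depth (193902 to 642890 assigned reads) and serve an alternative fit. The method and the fit were tested on simulated data. Intervals are exact Poisson or Clopper-Pearson at 95%, and the floor is 3 reads over a tissue.

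limma 3.58.1 (R 4.3.3) was fitted with a mean-variance trend to log2(FPKM + 1) of 4260 genes (1 FPKM reached in 3 or more libraries), over all 24 libraries, with no replicate block. Contrasts were each tissue against the mean of the other 7, the 28 pairs, and an F test over 8 tissues, with Benjamini-Hochberg adjustment over all tested genes within each. Since nothing says that libraries of a tissue came from separate animals beyond the words biological triplicates, p-values measure the spread between these libraries. Alternatives were TPM, median-ratio and quantile scaling, voom on recovered reads, pseudocounts of 0.1 and 5, a filter at 5 FPKM or none, a replicate block, no variance trend, no minimum difference and each library left out; leaving out aorta replicates 1 and 3, or the lung libraries, was chosen after seeing the data.

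The members, the 6 pathway lists, the 13 cell type lists and the tests were chosen with earlier results of these data known. Named were all members, up to 5 tested genes per pathway list with the most reads and partners of the members, up to 3 per cell type list, and for members with at least 30 reads the 3 tested genes of highest r. Other genes in counts were named after their values were seen. Python 3.11.15 with pandas 2.3.3, numpy 2.4.6 and scipy 1.17.1 was used.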

Additional observations from a re-analysis of the deposited data

How the results depend on the processing

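The lung differences of TEK, ERG, RAMP2, ENG and CLDN5 kept their sign in every alternative that tested them. RAMP2, ENG and CLDN5 would not have entered the main fit without lung. Their kept sign is a description and no support for a pattern. Leaving out 1 library at a time, they ranged from 3.04 to 3.37 for TEK, 2.24 to 2.84 for ERG, 3.90 to 5.06 for RAMP2, 1.55 to 2.14 for ENG (21 of 24 fits) and 1.00 to 1.62 for CLDN5. A pseudocount of 5 left 3 of the 5 members called higher in lung (TEK, ERG and RAMP2) and a filter at 5 FPKM left 2 (TEK and RAMP2), the others not being tested under that filter; the range without single libraries was 3 to 5, with 3 without lung replicate 3. By the F test 2 members were called with the 5 FPKM filter, 2 without the lung libraries (TEK and ERG) and 3 to 5 without single libraries, with 3 without lung replicate 2, lung replicate 3 or stomach replicate 1. In lung against aorta 1 member (RAMP2) was called with a pseudocount of 0.1 and 1 without aorta replicates 1 and 3, and 3 to 4 without single libraries.

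In aorta ERG joined TEK, for 2 members higher, with a pseudocount of 0.1, TPM or median-ratio scaling, voom, no minimum difference or no lung libraries; 0 were called with a pseudocount of 5, and 0 to 2 without single libraries (0 without aorta replicate 2, 2 without aorta replicate 1). In brain, spleen and stomach 2 were lower with a pseudocount of 0.1, TPM scaling or no minimum difference, and 0 with a pseudocount of 5; under voom they were 4, 5 and 2. In stomach 0 were lower without the lung libraries, and 0 to 1 without single libraries (0 without replicate 1 or 3). TEK was also called higher in heart, for 1 member, with a pseudocount of 0.1 or TPM scaling. In kidney 0 were higher with a pseudocount of 5 or median-ratio scaling, and in liver 0 were lower with a pseudocount of 5. A pseudocount of 5 left 0 tissues below lung for ENG and CLDN5, as did quantile normalization for CLDN5, which ranged from 0 (without lung replicate 3) to 7 without single libraries.

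In lung 1 vascular receptor signalling gene was lower under median-ratio scaling and quantile normalization (VEGFB), and 0 to 1 without single libraries. Of the endoglin and BMP list 1 was lower under these scalings, with no minimum difference and without aorta replicates 1 and 3, and 0 to 1 without single libraries. Under median-ratio scaling 3 junction genes were higher. The cause of these shifts was not tested.

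The replicate block left 5 members called by the F test and 5 called higher in lung, and changed no call of a member by tissue. Deviations of same-numbered libraries correlated at -0.0589 to 0.128 over 84 pairs (median 0.0241), and those of other numbers at -0.108 to 0.0769 (median -0.0173). Correlations this weak in shallow libraries cannot say whether same-numbered libraries shared an animal or a batch. FLI1 had its lowest level in replicate 2 in every tissue, and a pairing of the numbers was not tested further. Depth limits ENG, CLDN5, KDR, ESAM and SOX18 most, at 24 or fewer reads.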

Other observations

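The related ligands of the VEGF family were distributed in different ways over the tissues. VEGFB, a ligand of VEGF receptor 1 linked to fatty acid handling in muscle, was at 394.6 ± 22.3 FPKM in heart (SD, n = 3), 3.32 above the mean of the other tissues (limma adjusted p = 1.47e-07), and at 32.7 ± 13.8 in lung, where VEGFA had its highest mean. In heart VEGFA was 0.79 above the mean of the others, short of the minimum difference (limma adjusted p = 0.00817).

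Transcription factors of the endothelial list also stood high in tissues with few or no reads of the 8 genes. MEF2C, a factor of muscle, vessels and neurons, was at 254.8 ± 51.0 FPKM in brain and 152.8 ± 38.1 in spleen (2.83 and 1.98 above the means of the others, limma adjusted p = 2.80e-11 and 4.15e-08). PROX1 was 4.08 above the mean of the others in liver and 2.31 above in heart (limma adjusted p = 1.71e-11 and 7.35e-08). KLF4, known from endothelium and epithelium, was 4.99 above in stomach and 3.19 above in lung (limma adjusted p = 1.31e-08 and 5.03e-06). PROX1 and KLF4 were chosen after their values were seen.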
